A study of Mus musculus with 11 samples.

Results

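Translation initiation and elongation factors carry messenger RNA and initiator tRNA to the ribosome and then move the ribosome along the message. The genes described here are those whose symbol starts with Eif or Eef followed by a digit, without pseudogene symbols, and whose level was above 0 in at least 1 library. Of 64 matching symbols, 60 met this rule (52 Eif and 8 Eef genes) out of 17380 genes above 0 in the table. Eef1a2, Eif3j1, Eif3j2 and Eif4e1b were listed at 0 in every library and are not counted.

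RNA was sequenced from 11 libraries of C57BL/6 mice. The 5 leukemia libraries came from leukemic B cells of Pax5+/- x Ebf1+/- mice, taken as lymph node cell suspensions and flash frozen, with 1 mouse for each library. The 3 Ebf1+/- libraries (Ebf1 heterozygous) came from progenitor B cells purified on columns from bone marrow, in pools of 3, 6 and 7 mice. The 3 wild type libraries came from progenitor B cells purified in the same way, in pools of 3, 7 and 6 mice. The Pax5 and Ebf1 proteins commit lymphoid progenitors to the B cell lineage. Leukemias differ from both progenitor groups in tissue, freezing, pooling and disease as well as in the Pax5 allele, so these cannot be told apart. The labels give no ages of the mice.

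In the first phase of translation, eIF2 bound to GTP carries the initiator methionyl-tRNA to the small ribosomal subunit, with eIF1, eIF1A, eIF3 and eIF5 on the same subunit. The cap-binding complex eIF4F, made of the cap-binding protein eIF4E, the scaffold eIF4G and the helicase eIF4A, brings the message. Kinases that phosphorylate the alpha subunit of eIF2 turn eIF2 into an inhibitor of its exchange factor eIF2B, and 4E-binding proteins sequester eIF4E when mTORC1 is inactive. During elongation, eEF1A delivers aminoacyl-tRNA, the eEF1B subunits recharge eEF1A with GTP, and eEF2 moves the ribosome by a codon. Many of these messages start with a terminal oligopyrimidine (TOP) tract through which mTORC1 controls their translation.

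The libraries held 8506680 to 15313920 reads. The level used throughout is FPKM, the number of fragments per kilobase of transcript, scaled to the reads of the library, and fold changes are on the scale of log2(FPKM + 1). Ebf1 was at 54.3 to 81.4 FPKM in leukemias, 43.4 to 86.5 FPKM in Ebf1 heterozygous libraries and 83.4 to 111.5 FPKM in wild type libraries. Summed B cell markers (9 of 9 above 0 in each group) were at 3298 to 3927 FPKM in leukemias, 1563 to 4889 FPKM in Ebf1 heterozygous libraries and 2339 to 4166 FPKM in wild type libraries. The sum hides opposite differences of single markers. Pax5 was at 71.4 to 162 FPKM in leukemias, 89.0 to 254 in Ebf1 heterozygous and 175 to 312 in wild type libraries. Igll1 was at 552 to 937, 220.5 to 733 and 166 to 352 FPKM in the same groups. Vpreb1 was at 733 to 998, 224 to 734 and 173 to 352.5 FPKM. Ebf1 heterozygous replicate 1 stood apart from the other libraries of its group. Relative to them, its median log2 difference was 0.54 over the transcripts of 312 to 1543 bases and -0.44 over those of 4687 to 23495 bases, the shortest and longest 20% of genes.

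Translation factor messages took a larger share of the library in leukemias than in either progenitor group. They made up 4.43, 3.91, 4.04, 3.97 and 3.87% of all reads in leukemia replicates 1 to 5, against 2.90, 3.13 and 2.90% in Ebf1 heterozygous and 2.64, 3.05 and 2.98% in wild type libraries. The lowest leukemia lay above the highest progenitor library. The 8 Eef genes summed to 12143 to 15488 FPKM in leukemias, 7887 to 8757 FPKM in Ebf1 heterozygous libraries and 6946 to 8257 FPKM in wild type libraries. The 52 Eif genes summed to 5984 to 6476, 5284 to 5873 and 4907 to 5535 FPKM in the same groups. FPKM summed over all genes differed too, at 478442 to 532514, 440766 to 546590 and 423117 to 443560 in those groups. These sums of Eef and Eif genes are therefore not shares of a library. Eef1a1 alone held 48.0 to 54.0% of the summed FPKM of the 60 genes in leukemias, against 40.9 to 42.6% in Ebf1 heterozygous and 39.3 to 40.8% in wild type libraries.

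In leukemia against wild type, 22 of the 60 genes were called higher and 7 lower, and 31 did not pass the test (limma, adjusted p under 0.05 over all 10968 genes tested). Among all genes tested, 20.7% were called higher and 24.1% lower, so that the factors' share of 36.7% higher stood above the background and their share of 11.7% lower stood below it. Their median log2 fold change was 0.25, beside -0.04 over all genes tested. The groups did not overlap for 21 factors that were higher and 8 that were lower, where 21.2% and 25.1% of all genes did so. Of the 29 calls, 14 held under every alternative processing and with each library left out, and none of the 29 changed sign. By role, calls in both directions were found among the start codon factors, the eIF2 alpha kinases and the eIF4F group, whereas eIF3 had 6 higher and 0 lower of 12 and the elongation factors 4 higher and 0 lower of 5.

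**Figure D1:**
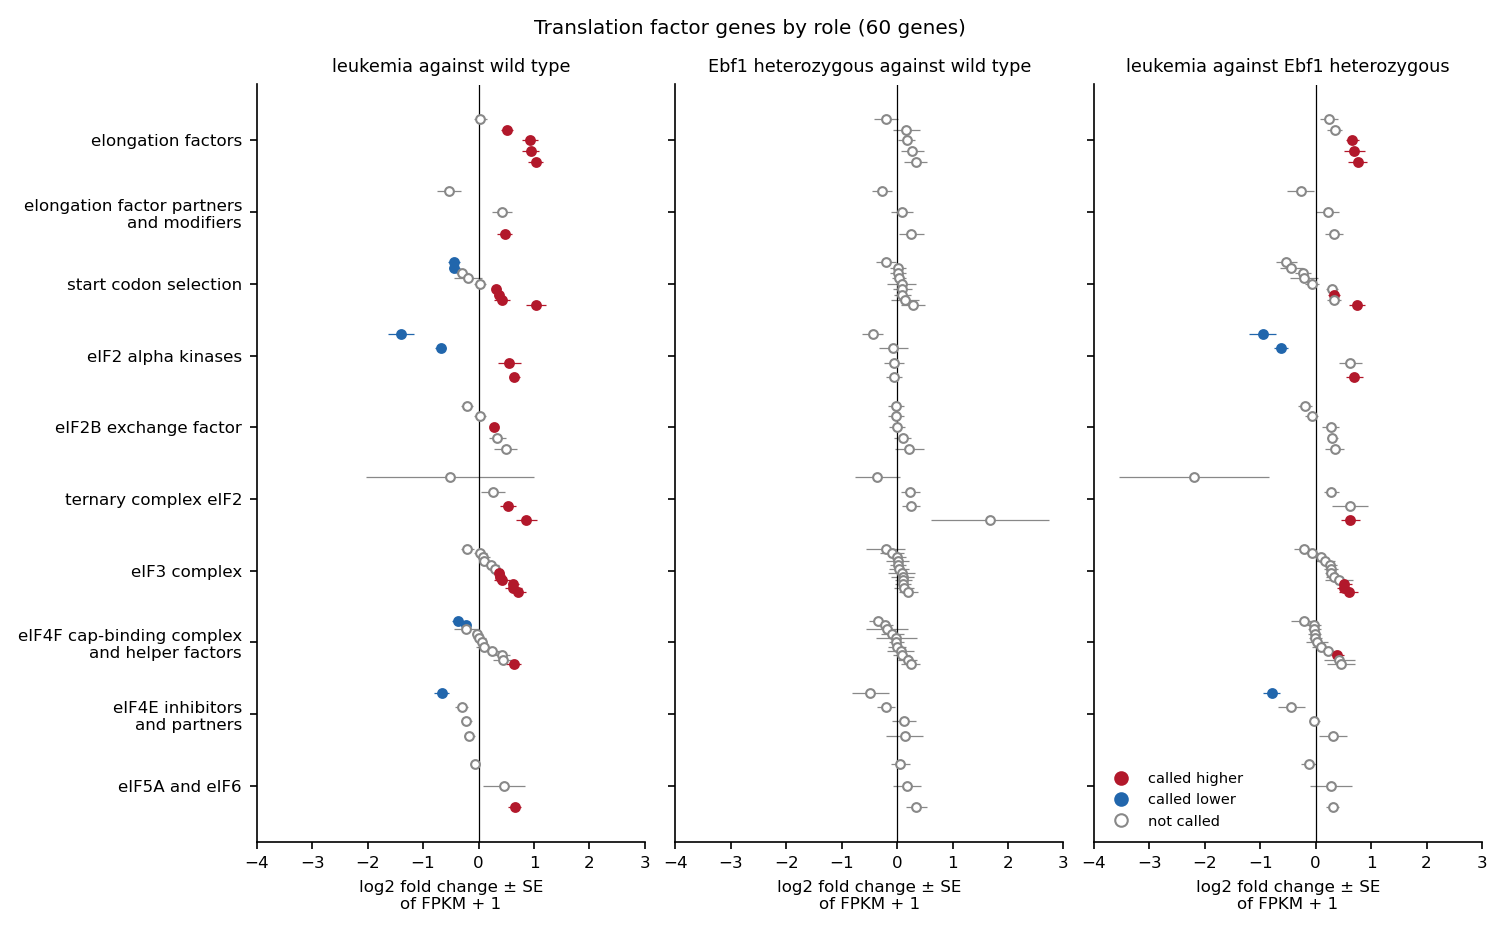
Log2 fold change of FPKM + 1 with its standard error (horizontal axes) for the 60 translation factor genes, grouped by role (vertical axis), in the 3 comparisons. Filled red and blue points passed the test as higher and lower. The 22 higher and 7 lower points of leukemia against wild type contrast with 0 filled points of Ebf1 heterozygous against wild type.

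Among the elongation factors, the eEF1 genes rose in leukemia and Eef2 did not pass the test. Eef1a1, which encodes the aminoacyl-tRNA carrier eEF1A1 and had the highest level of all genes in all 11 libraries, was at 11756, 8958, 10033, 9531 and 8979 FPKM in leukemias. It was at 5972, 6072 and 5384 FPKM in Ebf1 heterozygous libraries and 4662, 5626 and 5240 FPKM in wild type libraries. Every leukemia lay above every progenitor library. The log2 fold change of leukemia against wild type was 0.93 ± 0.15 (SE), with an adjusted p of 0.00118. This call was lost without a filter on low values (adjusted p = 0.27, with the same fold change) and under quantile scaling, which gives the top gene of each library the same value.

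The eEF1B exchange complex, which recharges eEF1A, rose too. Eef1b2, its exchange subunit, was at 738, 601, 613, 492 and 518 FPKM in leukemias, 476, 315 and 312 FPKM in Ebf1 heterozygous libraries and 273, 289 and 296 FPKM in wild type libraries. Eef1g, the gamma subunit, was at 1117, 977, 964, 945 and 875 FPKM in leukemias, 647, 600 and 595 FPKM in Ebf1 heterozygous libraries and 393, 558 and 593 FPKM in wild type libraries. Neither gene overlapped between leukemias and progenitors. Against wild type the log2 fold change was 1.03 ± 0.14 for Eef1b2 (adjusted p = 0.000451) and 0.94 ± 0.15 for Eef1g (adjusted p = 0.00119). Eef1d, the delta subunit, rose as well, at 78.4 to 102 FPKM in leukemias against 55.1 to 65.9 FPKM in wild type libraries (adjusted p = 0.00577).

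Eef2, the translocase, was at 1705, 1465, 1509, 1807 and 1608 FPKM in leukemias and 1493, 1638 and 1596 FPKM in wild type libraries, and the groups overlapped. Its log2 fold change of 0.04 ± 0.11 did not pass the test (adjusted p = 0.808), and its sign depended on the scaling (-0.64 under quantile scaling, adjusted p = 0.00294). Eef2k, the kinase that inhibits eEF2, was at 18.2, 20.8, 20.4, 38.3 and 27.6 FPKM in leukemias, 24.6, 37.4 and 27.4 FPKM in Ebf1 heterozygous libraries and 34.8, 38.1 and 33.9 FPKM in wild type libraries. Leukemia replicate 4 lay above the highest wild type library and the other 4 leukemias below the lowest. The log2 fold change of -0.54 ± 0.22 missed the threshold (adjusted p = 0.0697), and without that leukemia it was -0.70 with an adjusted p of 0.00569. Eef2kmt, a lysine methyltransferase of eEF2, was called higher, at 8.10 to 11.98 FPKM in leukemias against 6.46 to 7.25 FPKM in wild type libraries (adjusted p = 0.0235), a call lost without wild type replicate 1 or 2. Eef1e1, a component of the multi-tRNA synthetase complex, was not called.

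The start sites of the TOP messages are shown because a run of C and T at the start of the message is the feature by which this class is known. Each line gives 30 bases of the sense strand around the RefSeq start (GRCm38.p6), with the longest run of C or T in the 20 bases before to 30 bases after the start in capitals. The windows are chr9:78481710-78481739 (minus strand) for Eef1a1, chr1:63176814-63176843 (plus) for Eef1b2, chr10:81176631-81176660 (plus) for Eef2, chr7:108934403-108934432 (plus) for Eif3f and chr15:102073753-102073782 (plus) for Eif4b.
Eef1a1: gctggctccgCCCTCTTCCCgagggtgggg
Eef1b2: cttggacctgcagTTCCgccggaagtagcc
Eef2: gttgacgtcagcggTCTCTTCCgccgcagc
Eif3f: gttctaggCTCTCTCTCTTTCTCggcaaga
Eif4b: gcgcaggTCTTCCCgtcggacgccgcgcca
The runs were 10 bases in Eef1a1, 4 in Eef1b2, 8 in Eef2, 15 in Eif3f and 7 in Eif4b. The marked run crosses the RefSeq start in Eef1a1 and Eif3f, lies after it in Eef2, and lies wholly before it in Eef1b2 and Eif4b. Of 9 factors listed as TOP messages, 6 were called higher in leukemia (66.7%, against 20.7% of all genes) and 0 lower (against 24.1%), with a median log2 fold change of 0.62. The 6 were Eef1a1, Eef1b2, Eef1d, Eef1g, Eif3e and Eif3h, while Eef2, Eif3f and Eif4b did not pass the test.

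A run of at least 8 bases that are all C or T lay near the start in 13 of the 48 factors with an entry in the RefSeq promoter table (27.1%), against 21.8% of 8458 tested genes and 21.5% of all 27025 genes of that table. Among the factors with an entry, it was found in 5 of 16 called higher and 0 of 5 called lower, and in 8 of 27 that were not called. Eif6, Eif4g2, Eif4ebp1, Eef1g, Eif3i, Eif3h, Eif4ebp3, Eif3e, Eif2b3, Eif4e3, Eif1a and Eef1d were without an entry.

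Of 9 factors that select the start codon, 4 were called higher in leukemia (44.4%, against 20.7% of all genes) and 2 lower (22.2%, near the 24.1% of all genes). Eif1a, 1 of 2 mouse genes for eIF1A, was at 45.5, 52.7, 36.7, 47.0 and 40.3 FPKM in leukemias, 24.3, 23.7 and 30.02 FPKM in Ebf1 heterozygous libraries and 15.4, 22.5 and 26.8 FPKM in wild type libraries. Its lowest leukemia was above its highest progenitor library, and the log2 fold change against wild type was 1.03 ± 0.18 (adjusted p = 0.00181). Eif1ax, the X-linked eIF1A gene, was at 124 to 175 FPKM in leukemias against 90.0 to 129 FPKM in wild type libraries and was called higher (adjusted p = 0.0344). That call was lost in 7 alternatives, among them those without leukemia replicate 1, 2, 3 or 5 or wild type replicate 1 or 3.

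The falls in this group were those of Eif1b and Eif1ad. Eif1b, a close relative of Eif1, was at 51.8, 46.0, 45.4, 45.9 and 47.8 FPKM in leukemias, 101, 55.4 and 57.4 FPKM in Ebf1 heterozygous libraries and 75.5, 61.2 and 58.7 FPKM in wild type libraries, without overlap. It fell by 0.44 on the log2 scale (SE 0.10, adjusted p = 0.00729), a call lost with all groups in 1 fit (adjusted p = 0.0741). Eif1ad, which encodes a protein with an eIF1A domain, was at 36.5, 44.8, 33.6, 39.5 and 38.1 FPKM in leukemias, 52.2, 49.0 and 36.0 FPKM in Ebf1 heterozygous libraries and 51.6, 56.2 and 48.9 FPKM in wild type libraries, and fell by 0.43 (SE 0.11, adjusted p = 0.00965). Eif1 itself was at 188 to 256 FPKM in leukemias and 256 to 300 FPKM in wild type libraries and missed the threshold (adjusted p = 0.0768). Eif5, which triggers GTP hydrolysis by eIF2, and Eif2a, a factor proposed for initiation independent of eIF2, were called higher, at 79.8 to 96.4 FPKM and 63.3 to 71.4 FPKM in leukemias against 65.4 to 71.7 FPKM and 50.7 to 56.7 FPKM in wild type libraries. Eif5b, which joins the ribosomal subunits, and Eif2d were not called.

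The eIF2 alpha kinases divided. Eif2ak3, which encodes PERK, the kinase of endoplasmic reticulum stress, was at 9.39, 11.1, 14.7, 9.72 and 20.1 FPKM in leukemias, 25.7, 29.99 and 20.6 FPKM in Ebf1 heterozygous libraries and 40.5, 33.6 and 30.1 FPKM in wild type libraries. Every leukemia lay below every progenitor library, although leukemia replicate 5 came within 1 FPKM of the lowest Ebf1 heterozygous library. Eif2ak3 fell by 1.39 (SE 0.23, adjusted p = 0.00158), the largest fall of the 60 genes. Eif2ak1, which encodes the heme-regulated kinase HRI, was at 24.9, 31.6, 26.1, 31.5 and 29.7 FPKM in leukemias, 41.4, 42.4 and 51.4 FPKM in Ebf1 heterozygous libraries and 45.3, 48.5 and 45.8 FPKM in wild type libraries, and fell by 0.68 (SE 0.10, adjusted p = 0.000967).

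Eif2ak4 and Eif2ak2 moved in the opposite direction. Eif2ak4, which encodes GCN2, the kinase of amino acid shortage, was at 13.4, 12.9, 14.6, 12.2 and 14.9 FPKM in leukemias, 6.37, 9.74 and 8.08 FPKM in Ebf1 heterozygous libraries and 7.95, 8.15 and 8.81 FPKM in wild type libraries. The groups did not overlap, and the log2 fold change against wild type was 0.65 ± 0.10 (adjusted p = 0.000982). Eif2ak2, which encodes the double-stranded RNA kinase PKR, was called higher at 16.3 to 24.9 FPKM in leukemias against 10.2 to 17.5 FPKM in wild type libraries (adjusted p = 0.0463). Those groups overlapped, and the call was lost in 9 alternatives, among them those without leukemia replicate 1, 2 or 4 or wild type replicate 1 or 2.

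HRI is best known from red cell precursors. The sums of erythroid, granulocyte, megakaryocyte and monocyte markers were each lower in every leukemia than in every column-purified progenitor library. Summed erythroid markers were at 0.568 to 1.03 FPKM in leukemias (5 of 10 markers above 0), 283 to 751 FPKM in Ebf1 heterozygous libraries and 123 to 683 FPKM in wild type libraries (6 of 10 in each), with the 4 hemoglobin genes listed at 0 throughout and Car1 at 0 in leukemias. Granulocyte markers were at 3.79 to 8.36 FPKM in leukemias (11 of 13 above 0, with Cebpe and Fcnb at 0), 2724 to 10680 FPKM in Ebf1 heterozygous libraries and 632 to 3400 FPKM in wild type libraries. Megakaryocyte markers were at 0.282 to 1.64, 146 to 4143 and 79.6 to 465 FPKM, and monocyte markers at 58.1 to 158, 489 to 2046 and 394 to 662 FPKM in the same groups. Within the monocyte sum, Ccr2 and Csf1r overlapped between leukemias and progenitors. Ccr2 was at 36.48 FPKM in leukemia replicate 2, above its highest progenitor value (35.75 FPKM, Ebf1 heterozygous replicate 1). Csf1r was at 14.93 FPKM in leukemia replicate 1, against 5.745 to 20.56 FPKM in progenitor libraries. T and NK cell markers overlapped, at 17.4 to 50.97 FPKM in leukemias, 31.5 to 97.2 FPKM in Ebf1 heterozygous and 18.8 to 35.0 FPKM in wild type libraries. The part of these cells in the differences between leukemias and progenitors was not tested, and in bulk RNA fewer cells of a type and less RNA per cell cannot be told apart.

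**Figure D2:**
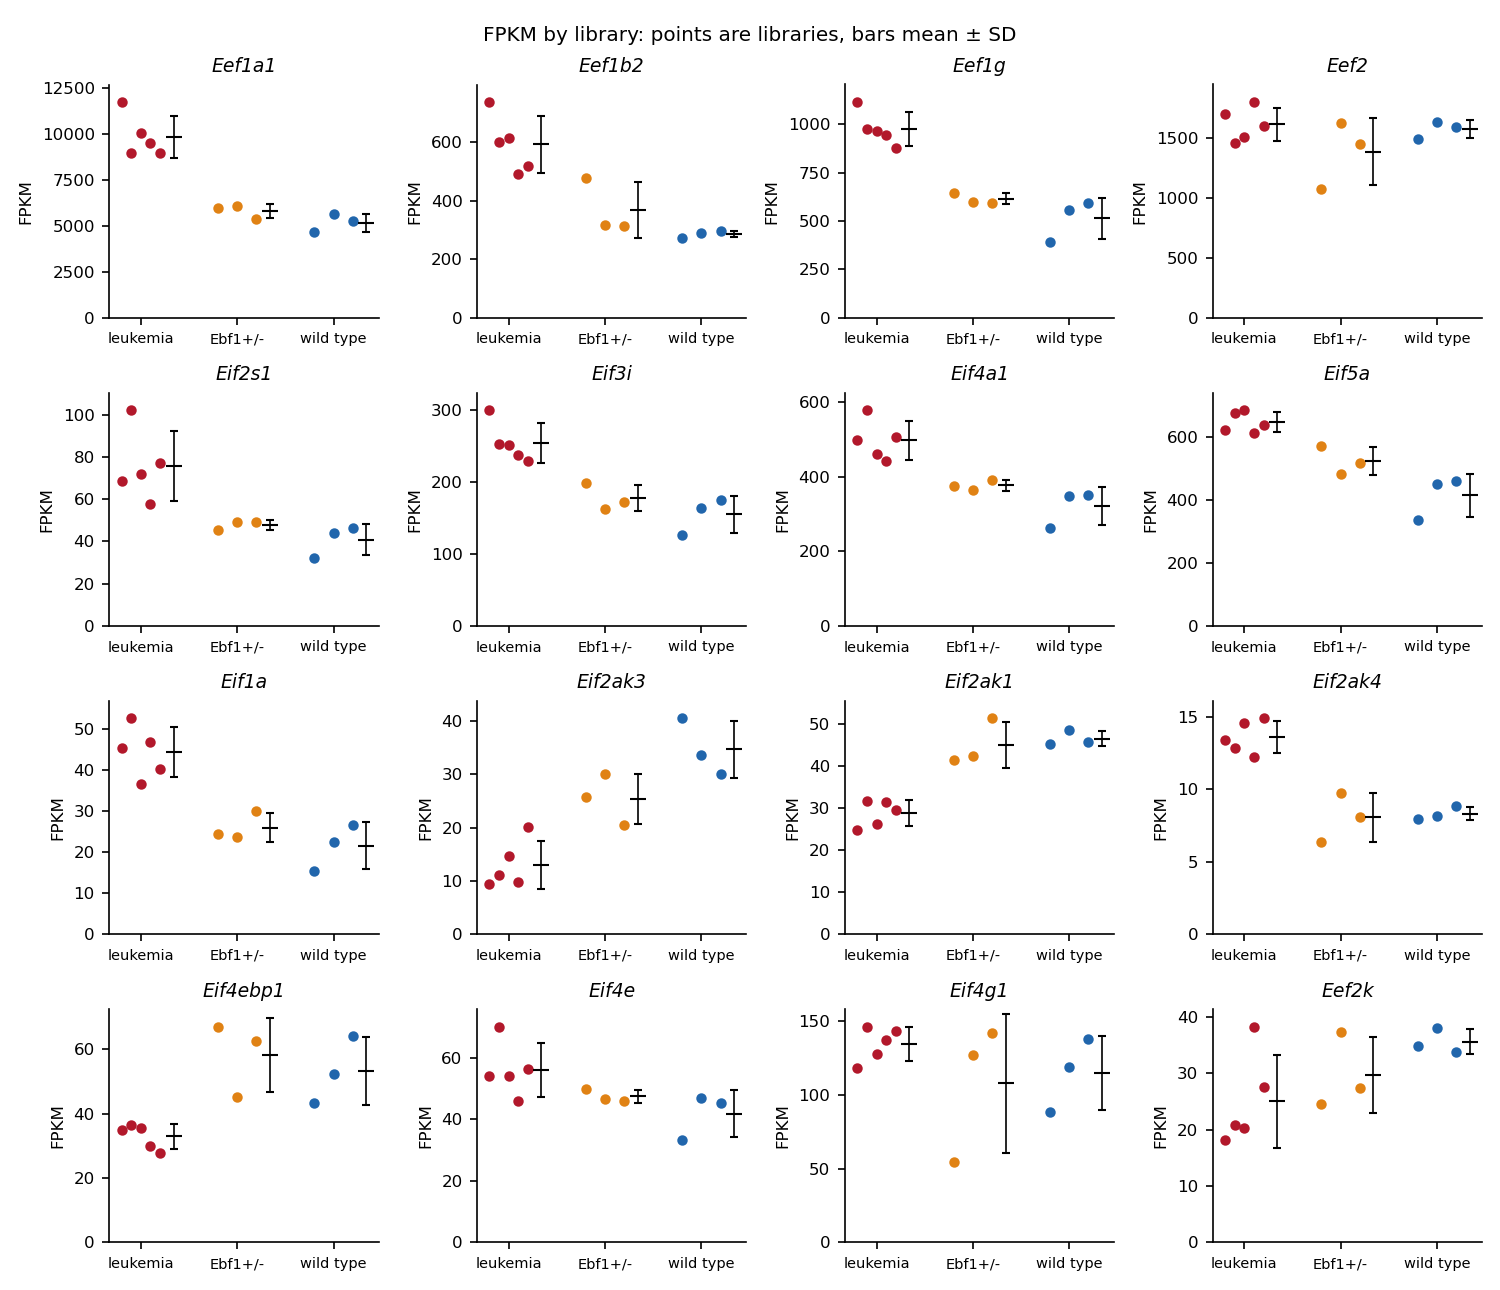
FPKM (vertical axes, from 0) of 16 translation factor genes in 5 leukemia, 3 Ebf1 heterozygous (Ebf1+/-) and 3 wild type libraries. Points are libraries and bars are mean ± SD. For Eef1a1, Eef1b2, Eef1g, Eif2s1, Eif1a and Eif2ak4 all leukemias lie above all progenitor libraries, and for Eif2ak3, Eif2ak1 and Eif4ebp1 all lie below.

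Of the 4 genes of eIF2 itself, 2 rose in leukemia (against 20.7% of all genes) and 0 fell. Eif2s1, the alpha subunit that the kinases modify, was at 68.4, 102, 71.8, 57.9 and 77.3 FPKM in leukemias, 45.2, 49.3 and 49.0 FPKM in Ebf1 heterozygous libraries and 32.3, 43.8 and 46.3 FPKM in wild type libraries. All leukemias were above all progenitors, with leukemia replicate 2 the highest, and the log2 fold change against wild type was 0.86 ± 0.18 (adjusted p = 0.00521). Eif2s2, the beta subunit, was called higher at 54.6 to 80.7 FPKM in leukemias against 36.4 to 50.4 FPKM in wild type libraries (adjusted p = 0.0156), a call lost without wild type replicate 1. Among the 5 subunits of eIF2B, Eif2b5, the catalytic one, was called higher at 50.5 to 53.9 FPKM in leukemias against 39.0 to 45.4 FPKM in wild type libraries (adjusted p = 0.0193), a call lost without wild type replicate 1 or 3. Eif2b1, Eif2b2, Eif2b3 and Eif2b4 were not called.

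The gamma subunit of eIF2 is encoded on both sex chromosomes in the mouse, by Eif2s3x (X chromosome) and Eif2s3y (Y chromosome). All libraries held Eif2s3x, and they differed in whether Eif2s3y was present as well. Eif2s3y was at 21.9, 0, 0, 0 and 38.9 FPKM in leukemia replicates 1 to 5, 30.1, 19.8 and 7.85 FPKM in Ebf1 heterozygous replicates 1 to 3 and 8.14, 18.1 and 0 FPKM in wild type replicates 1 to 3. Xist, the RNA of the inactive X chromosome, was at 0.0328, 49.5, 54.4, 25.5 and 0.0234 FPKM in the same leukemias, 9.88, 9.29 and 13.2 FPKM in the Ebf1 heterozygous and 18.9, 8.79 and 27.7 FPKM in the wild type libraries. Leukemias 1 and 5 thus held Eif2s3y with almost no Xist, leukemias 2, 3 and 4 held Xist with Eif2s3y at 0, and 5 of the 6 pools held both.

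Eif2s3x was at 50.6, 82.0, 69.0, 79.2 and 49.1 FPKM in leukemias, 21.5, 54.1 and 61.3 FPKM in Ebf1 heterozygous libraries and 41.0, 54.5 and 69.3 FPKM in wild type libraries, and its difference between leukemia and wild type did not pass the test (log2 fold change 0.26 ± 0.22, adjusted p = 0.365). The 3 leukemias without Eif2s3y had the highest Eif2s3x values of the 11 libraries except for wild type replicate 3, which also had Eif2s3y at 0 and lay just above leukemia replicate 3. The difference in Eif2s3y (log2 fold change -0.51 ± 1.52, adjusted p = 0.801) did not pass the test, and its sign turned without wild type replicate 2. Their coding sequences have 1419 bases each and differ at 194 of them (86.3% identical). The coding bases 601 to 660 of both genes are shown as an example of these differences, with the 14 differing bases in capitals.
Eif2s3x: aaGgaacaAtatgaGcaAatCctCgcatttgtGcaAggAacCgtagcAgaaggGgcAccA
Eif2s3y: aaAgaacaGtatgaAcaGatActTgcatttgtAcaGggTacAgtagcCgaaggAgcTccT

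**Figure D3:**
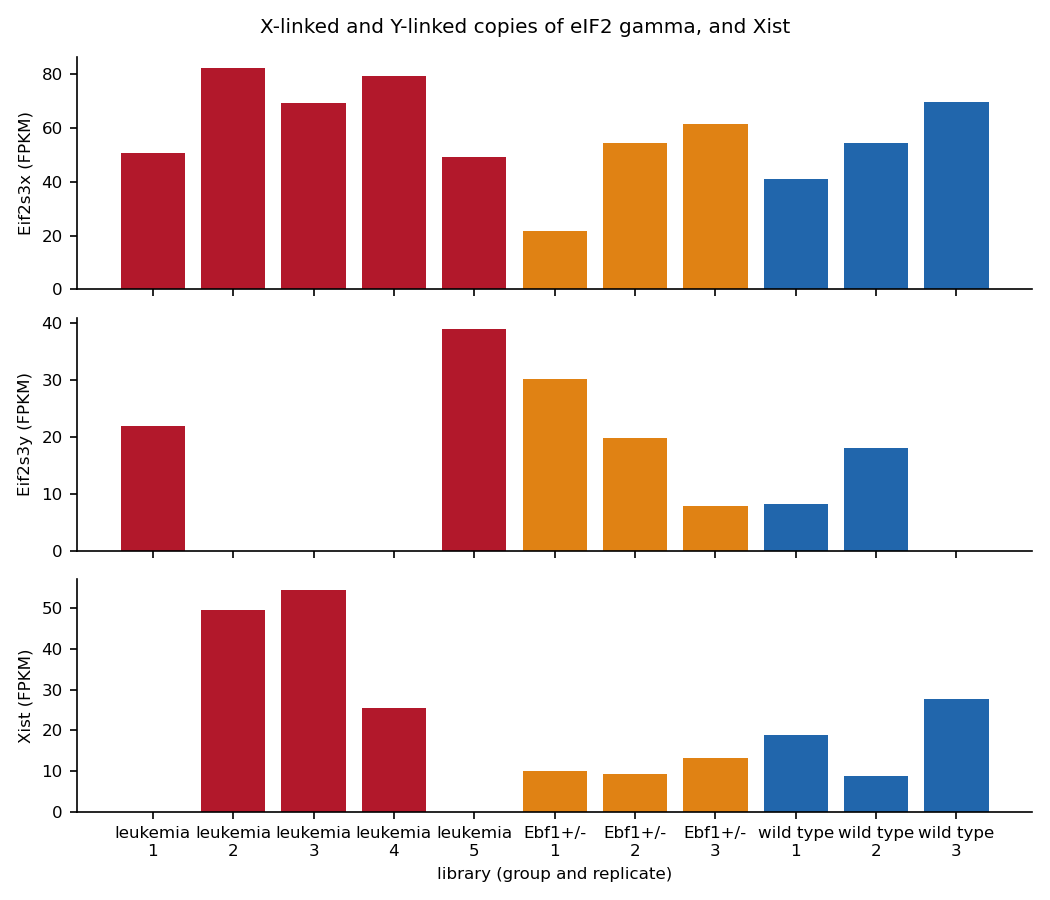
FPKM (vertical axes) of Eif2s3x, Eif2s3y and Xist in each library (horizontal axis, group and replicate), with 1 bar for each library. Leukemias 2, 3 and 4 and wild type replicate 3 have Eif2s3y at 0, and leukemias 1 and 5 have Xist below 0.05 FPKM.

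In the eIF3 complex, which bridges the message and the small ribosomal subunit, 6 of 12 genes were called higher in leukemia (against 20.7% of all genes) and 0 lower (against 24.1%), and 11 of 12 had a positive log2 fold change. The sign turned for Eif3k in 4 alternatives, among them quantile scaling and removal of the length trend, for Eif3c in 2 and for Eif3g in 1. Eif3i was at 300.3, 253, 251, 237 and 229.97 FPKM in leukemias, 198, 163 and 173 FPKM in Ebf1 heterozygous libraries and 127, 164 and 175 FPKM in wild type libraries, without overlap. Its log2 fold change was 0.72 ± 0.13 (adjusted p = 0.00245). Eif3h was at 531, 440.0, 613, 397 and 420.3 FPKM in leukemias, 371, 312 and 267 FPKM in Ebf1 heterozygous libraries and 325, 323 and 273 FPKM in wild type libraries, and its log2 fold change was 0.63 ± 0.15 (adjusted p = 0.00998). The other genes called higher were Eif3e, Eif3l, Eif3m and Eif3b, of which Eif3b lost its call in 10 alternatives, among them those without leukemia replicate 2, 3, 4 or 5 or wild type replicate 1 or 2.

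The members of eIF3 did not move as a block. Eif3a, the largest core subunit, was at 108, 144, 108, 131 and 126 FPKM in leukemias, 53.0, 120.1 and 119 FPKM in Ebf1 heterozygous libraries and 80.9, 114 and 126 FPKM in wild type libraries, and the groups overlapped (log2 fold change 0.22 ± 0.16, adjusted p = 0.294). Eif3c, Eif3d, Eif3g and Eif3k did not pass the test either. Eif3f had a negative value, at 253 to 339 FPKM in leukemias against 313 to 368 FPKM in wild type libraries (log2 fold change -0.20, adjusted p = 0.177).

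Of 11 genes of the cap-binding complex and its helpers, 1 was called higher in leukemia (9.1%) and 2 lower (18.2%), against 20.7% and 24.1% of all genes. Eif4a1, the main eIF4A helicase, was at 498, 580, 462, 442 and 509 FPKM in leukemias, 375, 364 and 393 FPKM in Ebf1 heterozygous libraries and 262, 349 and 352 FPKM in wild type libraries. All leukemias lay above all progenitors, and the log2 fold change against wild type was 0.64 ± 0.13 (adjusted p = 0.00466). Eif4e, the cap-binding protein, was at 54.0, 70.2, 54.1, 45.8 and 56.3 FPKM in leukemias, 49.7, 46.6 and 46.0 FPKM in Ebf1 heterozygous libraries and 33.2, 47.0 and 45.3 FPKM in wild type libraries. Leukemia replicate 4 was inside the wild type range, and the log2 fold change of 0.42 ± 0.16 missed the threshold (adjusted p = 0.0547). It passed in 5 alternatives, with an adjusted p of 0.0325 without leukemia replicate 4.

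Eif4g1, the main scaffold, was at 118, 147, 128, 138 and 143 FPKM in leukemias, 54.4, 127 and 142 FPKM in Ebf1 heterozygous libraries and 88.3, 119 and 138 FPKM in wild type libraries, with overlapping groups (log2 fold change 0.24 ± 0.14, adjusted p = 0.197). Eif4g3, a second eIF4G gene, was at 25.3, 24.8, 26.7, 26.0 and 30.7 FPKM in leukemias, 23.5, 30.9 and 27.7 FPKM in Ebf1 heterozygous libraries and 39.1, 30.7 and 34.4 FPKM in wild type libraries. It fell by 0.37 (SE 0.11, adjusted p = 0.0217), a call lost in 4 alternatives, among them those without wild type replicate 1 or 3. Eif4g2, an eIF4G relative without the eIF4E site, was called lower (adjusted p = 0.0493), a call lost in 14 alternatives, among them those without any 1 of the 8 libraries. Eif4a2, Eif4a3, Eif4b, Eif4e2, Eif4e3 and Eif4h were not called.

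All 4 genes of the eIF4E inhibitors and partners had negative log2 fold changes in leukemia, and 1 passed the test (25.0%, near the 24.1% of all genes called lower). Eif4ebp1, which encodes the 4E-binding protein 4E-BP1, was at 34.9, 36.6, 35.4, 29.9 and 27.9 FPKM in leukemias, 67.1, 45.1 and 62.6 FPKM in Ebf1 heterozygous libraries and 43.3, 52.3 and 64.1 FPKM in wild type libraries. Every leukemia lay below every progenitor library, and the gene fell by 0.67 (SE 0.14, adjusted p = 0.00527). Eif4ebp2 was at 83.5 to 105 FPKM in leukemias against 93.9 to 118 FPKM in wild type libraries, Eif4ebp3 at 8.54 to 9.60 against 9.23 to 13.4 FPKM, and Eif4enif1, which carries eIF4E into the nucleus, at 28.1 to 31.2 against 29.9 to 38.8 FPKM, and these 3 did not pass the test.

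The eIF5A family is the only one with hypusine. Eif5a, which relieves stalled ribosomes, was at 624, 678, 686, 614 and 639.9 FPKM in leukemias, 573, 484 and 519 FPKM in Ebf1 heterozygous libraries and 337, 451 and 460 FPKM in wild type libraries. Leukemias lay above both progenitor groups, and the log2 fold change against wild type was 0.65 ± 0.12 (adjusted p = 0.00256). The call was lost under quantile scaling (adjusted p = 0.0701). Eif5a2, the second eIF5A gene, was at 1.28 to 5.75 FPKM in leukemias against 1.59 to 3.11 FPKM in wild type libraries and was not called. Eif6, which keeps the ribosomal subunits apart, was at 68.5, 67.1, 75.5, 72.1 and 72.3 FPKM in leukemias, 96.6, 66.8 and 72.7 FPKM in Ebf1 heterozygous libraries and 76.5, 74.5 and 73.1 FPKM in wild type libraries, and its log2 fold change of -0.07 ± 0.08 did not pass the test (adjusted p = 0.474).

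Some of these genes have close copies elsewhere in the genome. Of all 50-base stretches of their GENCODE M21 transcripts, 65.5% in Eif4ebp3, 65.3% in Eif4a1, 64.3% in Eef1g, 53.6% in Eef1a1, 37.1% in Eif3m, 35.4% in Eif2s3x, 26.2% in Eif3h and 25.1% in Eef2kmt also occur in transcripts of other genes. How the authors' counting treated such reads is not given in the sources used here, so the levels of these genes are uncertain. Eif2s3y shared 0% with other genes. Eif3j1 and Eif3j2, listed at 0 in every library, shared 54.8% and 91.8% with other genes, most of it with each other (39.4% and 90.8%). Whether their values of 0 come from the counting was not tested.

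The E-box CACGTG, which is bound by Myc with Max and by other factors, was searched in the 300 bases from 250 before to 50 after each RefSeq start. The motif is its own reverse complement, so that both strands are searched at once. It was found in 12 of 48 factors (25.0%), against 12.2% of 8458 tested genes and 8.09% of all 27025 genes of the table. The windows below are those of the factors whose levels are given library by library above, with the motif in capitals on the sense strand of the gene (GRCm38.p6). They are chr3:138527028-138527057 (plus strand) for Eif4e, chr16:20672661-20672690 (plus) for Eif4g1, chr11:69672595-69672624 (minus) for Eif4a1, chr11:69921443-69921472 (minus) for Eif5a, chr10:81176576-81176605 (plus) for Eef2, chr7:120842788-120842817 (plus) for Eef2k, chr9:120492570-120492599 (plus) for Eif1b and chr19:60790654-60790683 (minus) for Eif3a.
Eif4e: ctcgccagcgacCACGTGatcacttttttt
Eif4g1: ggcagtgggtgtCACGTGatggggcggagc
Eif4a1: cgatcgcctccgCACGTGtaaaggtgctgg
Eif5a: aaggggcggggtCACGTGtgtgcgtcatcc
Eef2: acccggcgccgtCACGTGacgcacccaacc
Eef2k: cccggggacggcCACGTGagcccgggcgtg
Eif1b: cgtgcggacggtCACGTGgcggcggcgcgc
Eif3a: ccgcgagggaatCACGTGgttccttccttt
Of these, Eif4a1 and Eif5a were called higher in leukemia, Eif1b was called lower and the other 5 were not called. Over all factors with an entry, the motif was in 2 of 16 that were called higher (12.5%), 1 of 5 called lower and 9 of 27 not called (33.3%). The further windows with the motif belong to Eif3f, Eif3k, Eif4h and Eif5a2, of which none was called.

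In Ebf1 heterozygous against wild type, 0 of the 60 factors were called (limma), as were 0 of all 11167 genes tested (0.0%). At an unadjusted p under 0.05 the count was 0 of 60 factors, against 863 genes or 7.73% of all. With same-numbered pools paired it was 2 of 60 (Eif2ak3 and Eif2s3y), against 1800 genes or 16.1% of all. With 1 library left out it was 0 to 2 factors, against 427 to 1374 genes. A weighted fit on recovered reads (voom) also called 0 factors. The groups did not overlap for 5 factors that were higher and 2 that were lower, where 7.53% and 8.1% of all genes did so. The median log2 fold change of the factors was 0.06. The submitters' processing notes name TopHat2 and Cufflinks for the Ebf1 heterozygous libraries and BWA for wild type. In this comparison the tools cannot be told apart from genotype.

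The smallest unadjusted p-values among the factors belonged to Eif2ak3, Eif4g3, Eif5a and Eef1b2, whose values by library are given above. The log2 fold change of Ebf1 heterozygous against wild type was -0.44 ± 0.19 for Eif2ak3 (adjusted p = 0.652), -0.34 ± 0.16 for Eif4g3 (adjusted p = 0.7), 0.35 ± 0.19 for Eif5a (adjusted p = 0.717) and 0.33 ± 0.21 for Eef1b2 (adjusted p = 0.734). None passed the test. Between same-numbered pools Eif2ak3 was lower in 3 of 3 Ebf1 heterozygous pools, Eif4g3 in 2 of 3, and Eif5a and Eef1b2 were higher in 3 of 3. These genes were chosen by their p-values in the same libraries, so that the directions are not a separate test. With the replicate block the adjusted p was 0.23 for Eif2ak3, 0.373 for Eif4g3, 0.398 for Eif5a and 0.411 for Eef1b2. Reads were simulated at this depth for independent libraries with 1 dispersion (0.05) for all genes. They held no deviations shared by same-numbered pools and no difference by transcript length. Under that setting the test recovered 57.7% of 2-fold and 99.0% of 4-fold changes, so that small differences would often be missed. Recovery in the real pools was not measured.

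Part of the spread among the Ebf1 heterozygous pools followed transcript length. Ebf1 heterozygous replicate 1 was above the mean of the other pools of its group for 13 of 13 factors under 1500 bases (median log2 difference 0.33) and below it for 10 of 13 factors of at least 4000 bases (median -0.31). Eif4g1 (54.4 FPKM, against 127 and 142 FPKM in the other pools) and Eif3a (53.0, against 120.1 and 119 FPKM) are 5439 and 5176 bases long, and Eif1b (101, against 55.4 and 57.4 FPKM) is 917 bases long. In wild type replicate 1 the same medians were -0.10 for short and -0.12 for long factors. Removal of the length trend left the count of called factors at 0. Both replicates 1 are pools of 3 mice. Eif4a2, chosen after its values were seen, was highest in both of them, at 80.0 FPKM against 33.7 and 37.2 FPKM in the other Ebf1 heterozygous pools and 66.2 FPKM against 36.4 and 43.2 FPKM in the other wild type pools.

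**Figure D4:**
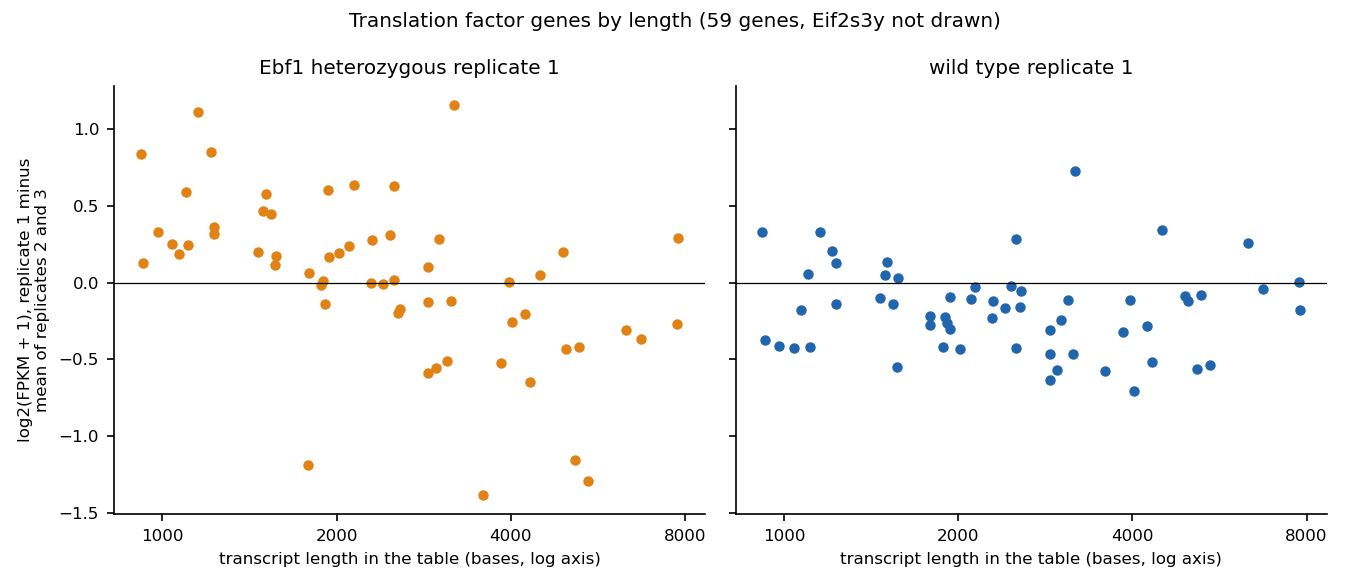
Log2(FPKM + 1) of replicate 1 minus the mean of replicates 2 and 3 (vertical axis) against transcript length in bases (horizontal log axis) for 59 translation factor genes, in Ebf1 heterozygous (left) and wild type (right) pools. Points are genes. All 13 factors under 1500 bases lie above 0 on the left, where 10 of 13 of at least 4000 bases lie below 0.

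Leukemia against Ebf1 heterozygous called 11 factors higher and 3 lower, where 9.31% and 12.3% of 11161 genes tested were called in those directions. This comparison uses the same leukemias as the first, so that its calls are not a separate test. The factors called higher were Eef1a1, Eef1b2, Eef1g, Eif1a, Eif2ak4, Eif2s1, Eif3e, Eif3h, Eif3i, Eif4a1 and Eif5, and those called lower were Eif2ak1, Eif2ak3 and Eif4ebp1. The log2 fold change was 0.76 ± 0.17 for Eef1a1 (adjusted p = 0.0154), 0.66 ± 0.12 for Eef1g (adjusted p = 0.00655), 0.75 ± 0.14 for Eif1a (adjusted p = 0.00742) and 0.70 ± 0.15 for Eif2ak4 (adjusted p = 0.0107). Among the falls it was -0.95 ± 0.25 for Eif2ak3 (adjusted p = 0.0245), -0.63 ± 0.13 for Eif2ak1 (adjusted p = 0.00987) and -0.79 ± 0.16 for Eif4ebp1 (adjusted p = 0.00837).

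The count of higher calls depended on single libraries. It was 3 without Ebf1 heterozygous replicate 2 or 3, 12 without Ebf1 heterozygous replicate 1, 5 without leukemia replicate 3 and 6 without leukemia replicate 1, 2 or 5. Over all genes, 1039 of 11161 were called higher with every library. That count was 732 of 11148, 690 of 10948 and 1224 of 11091 without Ebf1 heterozygous replicate 2, 3 and 1. Without leukemia replicate 1, 2, 3 and 5 it was 695 of 11178, 730 of 11217, 734 of 11201 and 832 of 11189. Without Ebf1 heterozygous replicate 2 or 3 the share of factors called higher was below that over all genes. Each of the 14 calls was lost in at least 1 alternative. For Eef1g, Eif1a, Eif2ak1, Eif2ak4 and Eif4ebp1 that was only the replicate block over replicates 1 to 3. Their calls held with each library left out. The alignment tools also differ between these groups and cannot be told apart from genotype or disease, since TopHat2 and Cufflinks are named for the Ebf1 heterozygous libraries and BWA 0.7.12 for the others in the submitters' processing notes.

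Among leukemias, the factors varied by a median coefficient of variation of 10.8%, against 13.7% among Ebf1 heterozygous and 11.1% among wild type pools. Eif2s3y aside, the most variable factors in leukemias were Eif5a2 (53.5%), Eif2ak3 (34.5%), Eef2k (32.8%), Eif2d (29.1%) and Eif4e2 (25.9%), and the least variable was Eif2b5 (2.82%). These genes were chosen after their values were seen.

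Eif2d and Eif4e2 were lowest in leukemia replicate 4. Eif4e2 (chr1:87213911-87240488), a cap-binding relative of eIF4E that represses translation, was at 22.1, 20.5, 19.9, 10.1 and 20.01 FPKM in leukemia replicates 1 to 5, and Eif2d (chr1:131153172-131187659), a factor for noncanonical initiation and recycling, was at 23.8, 24.9, 19.7, 10.5 and 23.8 FPKM. Relative to the median of the other leukemias, leukemia replicate 4 was at a log2 difference of -0.94 for Eif4e2 and -1.11 for Eif2d. The 10 nearest genes below and above had medians of -0.94 and -0.78 around Eif4e2 and of -0.78 and -0.84 around Eif2d. In the 10-Mb bins of chromosome 1 between 80 and 130 Mb the median over genes was between -0.93 and -0.80 in this leukemia, and from 0 to 80 Mb the bins were between -0.11 and 0.19. Eif2d lies just beyond, in the bin of 130 to 140 Mb, whose median over 47 genes was -0.13, and the bins from 140 Mb on were between -0.04 and 0.08. Eif5b and Eef1b2 lie outside the stretch of low values, with neighbours at medians between -0.04 and 0.05.

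A smaller shift was present on chromosome 15, which carries 6 of the factors. In leukemia replicate 3 the median log2 difference to the other leukemias over 312 other genes of the chromosome was 0.23, with 85.9% of them above 0. Chromosome 17 was the only other chromosome with a median above 0.1 in any leukemia (0.19, with 84.1% of 422 genes above 0). Eif3h was at 613 FPKM in leukemia replicate 3 against 397 to 531 FPKM in the other leukemias, a log2 difference of 0.51. Eif3d, Eef1d, Eif4b and Eif3l were also highest in that leukemia, at log2 differences of 0.34, 0.26, 0.25 and 0.16, and Eif3e was at 0.06. DNA copy number was not analysed here. The calls of Eif3h, Eif3e, Eif3l and Eef1d in leukemia against wild type held without leukemia replicate 3.

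Genes that act on the factors were described from lists in the same way, for leukemia against wild type. Of 15 genes of mTORC1 and its S6 kinase arm, 2 were called higher (13.3%) and 2 lower (13.3%), both shares below those over all genes tested, 20.7% and 24.1%. Rps6, the S6 kinase substrate, was at 1539 ± 221 FPKM in leukemias and 853 ± 49.2 FPKM in wild type libraries (SD, n = 5 and 3), with a log2 fold change of 0.84 ± 0.13 (adjusted p = 0.00119), which was 0.19 under quantile scaling (adjusted p = 0.14). Deptor, an mTOR inhibitor, was at 4.15 ± 1.85 FPKM in leukemias and 1.22 ± 0.58 FPKM in wild type libraries (adjusted p = 0.0261), a call lost in 7 alternatives, among them those without leukemia replicate 1, 2 or 4 or wild type replicate 1 or 2. Lamtor1, part of the complex that holds mTORC1 at the lysosome, was also called lower (log2 fold change -0.23, adjusted p = 0.046), a call lost in 12 alternatives, among them those without leukemia replicate 1, 2, 4 or 5 or wild type replicate 1 or 2. Tsc2, which restrains mTORC1, fell by 0.54 on the log2 scale (adjusted p = 0.0105).

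The kinases that phosphorylate eIF4E moved apart. Mknk2 was at 167, 220.1, 223, 220 and 244 FPKM in leukemias, 151, 178 and 131 FPKM in Ebf1 heterozygous libraries and 125, 145 and 127 FPKM in wild type libraries, with a log2 fold change against wild type of 0.69 ± 0.13 (adjusted p = 0.00274). Mknk1 was at 9.84, 10.2, 12.9, 9.65 and 13.6 FPKM in leukemias, 18.7, 14.9 and 24.7 FPKM in Ebf1 heterozygous libraries and 21.3, 14.7 and 18.6 FPKM in wild type libraries, and fell by 0.65 (SE 0.16, adjusted p = 0.00961). Neither overlapped between leukemias and wild type.

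Enzymes of diphthamide, the modified histidine of eEF2 that diphtheria toxin attacks, made up most of the next list. Of 8 genes for diphthamide and for the hypusine of eIF5A, 5 were called higher (62.5%, against 20.7% of all genes) and 0 lower (against 24.1%), with a median log2 fold change of 0.63. The 5 were Dph1 (0.87), Dph7 (0.77), Dph6 (0.76), Dph2 (0.64) and Dph5 (0.62). Dph3, also of the diphthamide pathway, was at -0.09 (adjusted p = 0.515) and was not called. Dhps and Dohh, which make hypusine, were at 0.15 and 0.00 and did not pass the test.

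Of 7 genes of termination and recycling, 4 were called higher (57.1%, against 20.7% of all genes) and 0 lower, among them Mcts1 (log2 fold change 0.69, adjusted p = 0.00627) and Denr (0.45, adjusted p = 0.0202), whose products act as a pair in recycling the small subunit, and Pelo (0.65, adjusted p = 0.011), a ribosome rescue factor. The call of Denr was lost without wild type replicate 1 (0.31, adjusted p = 0.0683). The call of the fourth, Gspt1, a release factor (0.41, adjusted p = 0.0338), was lost in 8 alternatives, among them those without leukemia replicate 2, 3, 4 or 5 or wild type replicate 1 or 2. Of 5 genes of poly(A) binding, 2 were called higher (against 20.7% of all genes) and 0 lower (against 24.1%). The 2 were Pabpc1 and Paip2b (log2 fold change 0.54, adjusted p = 0.00435 for Paip2b). Pabpc1 was at 1107 ± 80.6 FPKM in leukemias and 755 ± 66.6 FPKM in wild type libraries (log2 fold change 0.55, adjusted p = 0.00319). Under quantile scaling Pabpc1 was at 0.08 (adjusted p = 0.594).

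Of 20 cytosolic tRNA synthetases, 3 were called higher and 2 lower, shares below the 20.7% and 24.1% over all genes. The rises were those of Farsb (0.48), Kars (0.43) and Tars (0.43), and the 3 calls were lost without wild type replicate 1, with adjusted p-values of 0.0545, 0.0654 and 0.0538. The falls were those of Aars (-0.42), whose call was lost without wild type replicate 2 or 3, and Hars (-0.37), whose call was lost in 11 alternatives, among them those without leukemia replicate 1, 3, 4 or 5 or wild type replicate 2 or 3. Of 9 mitochondrial translation factors, 2 were called higher (22.2%, near the share over all genes) and 0 lower. They were Mtif3 (0.59) and Mtrf1 (0.63), and the call of Mtrf1 was lost without wild type replicate 1 (adjusted p = 0.0699).

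The integrated stress response, the program set off when eIF2 alpha is phosphorylated, had 1 gene called higher (11.1%) and 5 lower (55.6%) of 9 tested, against 20.7% and 24.1% of all genes, and its median log2 fold change was -0.56. Asns, asparagine synthetase, was at 0.427, 0, 0.0837, 0.0401 and 0 FPKM in leukemias, 16.2, 19.0 and 41.1 FPKM in Ebf1 heterozygous libraries and 6.60, 26.8 and 51.9 FPKM in wild type libraries, with a log2 fold change against wild type of -4.35 ± 0.51 (adjusted p = 0.00027). Trib3, a target of the same program, went the other way at 7.11, 7.93, 16.5, 15.5 and 11.1 FPKM in leukemias, 6.14, 5.00 and 2.32 FPKM in Ebf1 heterozygous libraries and 1.32, 1.44 and 1.21 FPKM in wild type libraries (log2 fold change 2.38 ± 0.26, adjusted p = 0.000193). Neither gene overlapped between leukemias and progenitors. Cebpb fell by 1.86 (SE 0.32, adjusted p = 0.00173), and Ppp1r15a and Ppp1r15b, which bring the phosphatase to eIF2 alpha, fell by 0.73 and 0.56. Ddit3, which encodes CHOP, fell by 0.54, a call lost without wild type replicate 1 or 3. The call of Ppp1r15a was lost with all groups in 1 fit (adjusted p = 0.108). Atf4, the transcription factor of the program, did not pass the test (log2 fold change -0.22, adjusted p = 0.321). Markers of granulocytes and monocytes, which express Cebpb, differed between these groups as given above. Summed erythroid markers were at 123, 340.0 and 683 FPKM in wild type replicates 1 to 3, in the same order as Asns there, and at 289, 283 and 751 FPKM in Ebf1 heterozygous replicates 1 to 3, where replicate 3 was highest in both. Summed megakaryocyte markers had the same order as Asns in both groups. They were at 79.6, 258 and 465 FPKM in wild type and 146, 269 and 4143 FPKM in Ebf1 heterozygous replicates 1 to 3. Granulocyte markers had the reverse order in wild type replicates 1 to 3, at 3400, 1807 and 632.5 FPKM. The part of these cell types in the values of the list was not tested.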

How the data were processed

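RNA-seq was analysed for 11 mouse libraries. The authors deposited 1 table of FPKM values for 23071 gene symbols. Per the submitters' processing notes, reads of leukemia and wild type libraries were aligned with BWA 0.7.12 and those of Ebf1 heterozygous libraries processed with TopHat2 and Cufflinks, on build mm10 (GRCm38). No source used here names the counting tool. All values of the 17380 genes above 0 were whole reads within 0.001 read, and library totals were 8506680 to 15313920 reads, so counting error is small for all but the lowest factors.

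Values entered as log2(FPKM + 1), and a gene was tested when it averaged 1 FPKM or more in the 2 groups compared. The fit was limma (version 3.58.1, R version 4.3.3) with an eBayes trend and a two-sided test on those groups alone, followed by Benjamini-Hochberg adjustment over every gene tested. All 60 factors were tested in each comparison. Wild type libraries serve in 2 comparisons. The p-values measure the spread between these libraries. Simulated reads (dispersion 0.05, 200 genes changed) were fitted in the same way, and 2-fold changes were recovered at 75.8%, 57.7% and 62.9% in leukemia against wild type with its 10968 genes, Ebf1 heterozygous against wild type with 11167 and leukemia against Ebf1 heterozygous with 11161.

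Values by library are given for the 6 called factors of largest rise and 6 of largest fall with at least 5 FPKM, the 4 of smallest p where no call was made, the largest further rise in leukemia against Ebf1 heterozygous, 14 core factors, and up to 3 called genes from each list. Factors singled out beyond this rule were chosen after their values were seen. The members, lists and rule were chosen with earlier results of these data known.

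Alternatives were a pseudocount of 0.1, no filter, a filter at 5 FPKM, median-ratio scaling, quantile scaling, a fit of all groups, a replicate block, and each library left out. Voom on the recovered reads, removal of the trend with transcript length and leaving out both pools of 3 mice were added after the data were seen. Same-numbered wild type and Ebf1 heterozygous libraries deviated together from their group means (correlations 0.65, 0.32 and 0.69), so their numbers were taken to pair them, although no label names a shared batch. Starts and sequences are from RefSeq (GRCm38.p6), with 48 of 60 factors in the promoter table. Tables used pandas 2.3.3 and NumPy 2.4.6 in Python 3.11.15, and plots Matplotlib 3.10.9.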

Additional observations from a re-analysis of the deposited data

Results flagged for a closer look

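Levels of the 60 factors were screened in the 5 leukemias for a library whose gap to its nearest neighbour exceeds 0.71 of the whole range, which chance gives in about 1 in 20 groups. The screen marked 2 genes, fewer than chance would give. Eif4e2 was lowest in leukemia replicate 4 at 10.1 FPKM (10.07), with a gap of 0.821 of the range, and lies in the stretch of chromosome 1 whose genes were lower in that leukemia. Eif2b5 was highest in leukemia replicate 5 at 53.9 FPKM (53.85), with a gap of 0.751 of a range of only a few FPKM.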

How the results depend on the processing

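For leukemia against wild type, the count of factors called higher was 22 and lay between 16 and 23 under the alternatives, and the count called lower was 7 and lay between 5 and 9. Leaving out 1 library gave 17 to 22 higher and 5 to 7 lower, where 1746 to 2135 of all genes were called higher and 2048 to 2590 lower. Of the 29 calls, 15 were lost in at least 1 alternative. Ebf1 heterozygous against wild type gave 0 calls among factors under every alternative, the replicate block and the fit without both pools of 3 mice included, while 11 other genes were called higher and 12 lower with all groups in 1 fit. Numbers pair these 2 groups only. In leukemia against Ebf1 heterozygous, correlations of same-numbered deviations were -0.01, 0.13 and -0.12. There the block over replicates 1 to 3, which leaves out leukemia replicates 4 and 5, gave 1 higher and 0 lower. Calls over all genes fell too, from 1039 higher and 1370 lower of 11161 to 328 higher and 611 lower of 11227. The cause was not tested. Leaving out 1 library gave 3 to 12 higher and 2 to 3 lower, where 690 to 1224 of all genes were called higher and 1007 to 1416 lower. In leukemia against wild type (correlations -0.05, 0.10 and -0.16), the block gave 16 higher and 6 lower, where 1633 and 2076 of 10982 genes were called. Signs turned in at least 1 alternative for 12 of the 31 factors not called in this comparison. Of those described library by library, Eef2 was at -0.640 under quantile scaling (adjusted p = 0.00294), -0.017 with the block and -0.005 to 0.071 with 1 library left out, below 0 without leukemia replicate 4 or wild type replicate 1. Eif2s3y was at -1.755 to 0.371 with 1 library left out, above 0 without wild type replicate 2. Quantile scaling gives the top gene of each library 1 value, so it cannot show a change of Eef1a1. Eif5a2 had 79 to 376 reads in leukemias.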
